A study of Macaca mulatta with 24 samples.

Results

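Oxidative phosphorylation subunits are the proteins of the respiratory chain and of ATP synthase in the inner mitochondrial membrane. The nuclear genes for them were followed in jejunum of rhesus macaques after total-body irradiation (TBI). A probe was taken as a member when its gene symbol in the normalized table began with NDUFA, NDUFB, NDUFC, NDUFS, NDUFV, UQCR, COX4 to COX8 or ATP5, or was SDHA, SDHB, SDHC or SDHD. This rule used names and no measured value, and it chose 126 of 43603 probes on the array, for 67 of 16094 symbols.

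The study compared radiation injury between parts of the intestine of a non-human primate, and the samples described here are those of jejunum. Every animal was a young-adult male rhesus macaque, and each of the 24 arrays held unpooled RNA of 1 piece of whole jejunum. The control group (n = 4) was sham-irradiated with a dose of 0 and is labelled as day 4. The irradiated groups received a single dose of gamma rays. They were 6.7 Gy on day 4 (n = 4), 7.4 Gy on day 4 (n = 4), 6.7 Gy on day 7 (n = 4), 7.4 Gy on day 7 (n = 4), 6.7 Gy on day 12 (n = 2) and 7.4 Gy on day 12 (n = 2). The titles and the day given for each sample put the last time at day 12, which is used here, while the treatment text of the same labels gives day 21. Each animal was sampled once, so the days are different animals, days 7 and 12 have no sham group of their own, and animals sampled on day 12 had survived to it. The pieces hold mucosa, muscle and immune cells together, and in such bulk tissue fewer cells of a type and less RNA per cell cannot be told apart.

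In the respiratory chain, electrons from NADH enter at complex I (NADH dehydrogenase, the NDUF genes) and electrons from succinate at complex II (succinate dehydrogenase, SDH). Both pass them through ubiquinone to complex III (the cytochrome bc1 complex, UQCR) and on to complex IV (cytochrome c oxidase, COX), which reduces oxygen. The proton gradient that complexes I, III and IV build up drives ATP synthase (ATP5), and in the small intestine this ATP feeds nutrient uptake by enterocytes and cell renewal in the crypts.

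The members fell into 45 probes for 24 symbols of complex I, 7 for 3 symbols of complex II, 15 for 7 of complex III, 23 for 13 of complex IV and 23 for 12 of ATP synthase. NDUFA4, once counted in complex I, was placed in complex IV. The name rule also took 7 probes for 5 complex I assembly factors (NDUFAF) and 6 probes for ATP5SL, COX7A2L and COX4NB. COX4NB is now named EMC8 and is not a respiratory gene, but it stayed in because the rule took it. No probe carried the symbol SDHA, the flavoprotein of complex II. Levels are log2 intensities relative to the 75th percentile of the same array, so 0 is that percentile. They compare arrays for 1 probe and do not compare probes.

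Of the 126 probes, 118 (64 symbols) were tested because all arrays of 1 group or more had them well above background. The signal of 115 was well above background throughout, on 24 arrays. The exceptions were probes of NDUFAF5 (22 arrays), UQCRB (20) and COX4NB (23). The 8 probes left out were 1 each of NDUFA4L2, UQCRH, COX4I2, NDUFAF6, NDUFB2 and NDUFB5 and 2 of NDUFA5.

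The arrays lay on 6 slides of 4 positions and were scanned on 2 days. Between 39.4% and 87.7% of the probes on an array stood well above background, fewest on slide 5, at 39.4% to 49.7%. All controls lay at position 1 of slides 1 to 4 and were scanned on the first day. Day 4 arrays lay at positions 1 and 2 after 6.7 Gy and only at position 2 after 7.4 Gy. Day 7 and day 12 arrays lay only at positions 3 and 4. For days 7 and 12, and for 7.4 Gy on day 4 against control, position and treatment cannot be told apart on the arrays compared. No spot was saturated. Absorptive enterocyte markers, which define this tissue, were found in every group. Of 13 such genes tested, 3 fell on day 4 at both doses averaged, with a median log2 difference of -0.44.

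On day 4 the oxidative phosphorylation genes were lower in irradiated than in control jejunum at both doses, and the medians of the 5 complexes lay between -0.66 and -0.50. Averaged over both doses, 63 of the 118 members fell and 0 rose at an adjusted p under 0.05, while 5.71% of the 28177 probes tested on the array fell and 5.01% rose. The median member difference was -0.53 on the log2 scale, or -30.5% of the level, beside -0.07 over all tested probes. In all, 115 members were below the control mean, beside 58.1% of all probes. At the study's limits of adjusted p under 0.05 and 2-fold or more, 0 members passed in limma, beside 2.88% of all probes, and 90 had an unadjusted p under 0.05, all of them lower, beside 15.6% of all probes. The quartiles of the member differences were -0.65 and -0.34 and the whole range ran from -0.85 to 0.19.

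**Figure D1:**
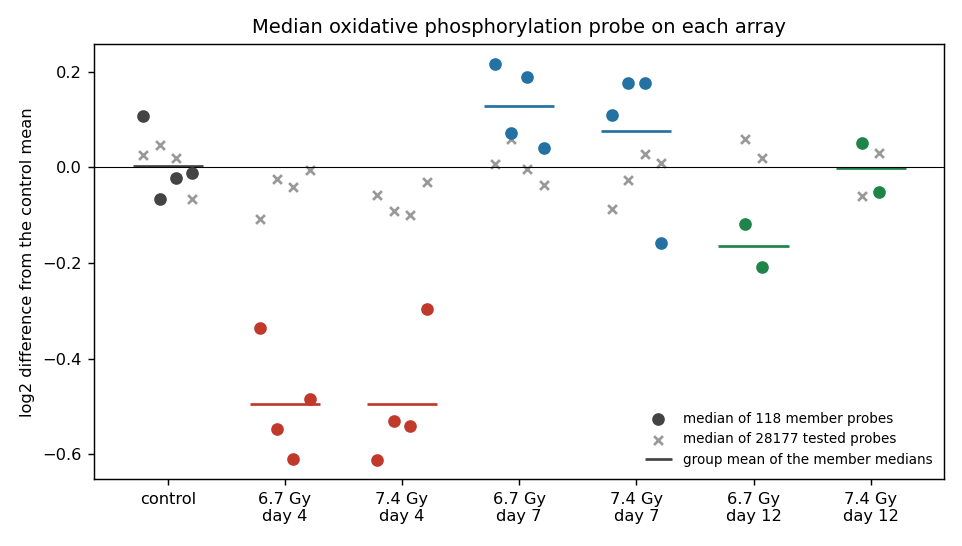
Each point is 1 array: the median over the 118 tested members of the log2 difference from the control mean. Grey crosses are the all-probe medians and horizontal lines the mean of the member medians of each group (n = 4, on day 12 n = 2). All 8 day 4 arrays lie between -0.61 and -0.30, below the lowest control array at -0.07.

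Each dose showed this on its own arrays. After 6.7 Gy, 16 members fell on day 4 and 0 rose, beside 1.49% of all probes that fell and 2.12% that rose, and 74 were lower at an unadjusted p under 0.05, beside 11.2% of all probes. After 7.4 Gy, 28 fell and 0 rose, beside 2.32% of all probes that fell and 3.05% that rose, and 77 were lower at an unadjusted p under 0.05, beside 14% of all probes. At the study's limits 0 members passed at either dose, beside 1.98% and 2.6% of all probes. The median difference was -0.53 after 6.7 Gy and -0.52 after 7.4 Gy, against the same 4 controls. The methods' t-test with Benjamini-Hochberg adjustment passed 13 and 21 members, beside 1.3% and 2.56% of all probes, and at the study's limits 0 and 0, beside 0.55% and 1.07%.

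The median over members, taken array by array, separated the groups. The controls were at 0.11, -0.07, -0.02 and -0.01 around their own mean. The 6.7 Gy arrays of day 4 were at -0.34, -0.55, -0.61 and -0.48, and the 7.4 Gy arrays at -0.61, -0.53, -0.54 and -0.30. No day 4 array overlapped a control. Single members overlapped more often. All 4 arrays of the dose were below all 4 controls for 68 members after 6.7 Gy, beside 7.66% of all probes, and for 66 after 7.4 Gy, beside 10.1%. For 56 of the 118, all 8 day 4 arrays were below all 4 controls, beside 4.93% of all probes. For 0 members were they all above, beside 4.08%.

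The difference was also present within slides. On slides 1 to 4, each of which held 1 control and 1 day 4 array, the median member difference was -0.70, -0.42, -0.59 and -0.53, with 108 to 110 of the 118 members below 0. On the same slides the median over all probes was -0.06, -0.10, -0.08 and -0.00. In each of these pairs the control lay at position 1 and the day 4 array at position 2. With position on the slide as a term in the model, the median stayed at -0.44 but 0 members passed the adjusted p, beside 0.263% of all probes. The 2 day 4 arrays that shared position 1 with the controls, both of 6.7 Gy and from the second scan day, had medians of -0.34 and -0.55.

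The counts at a single dose depended on the model and on single arrays. With all arrays in 1 model 42 members fell after 6.7 Gy and 48 after 7.4 Gy, beside 4.49% and 6.88% of all probes past the adjusted p in either direction. With slide as a fixed term in that model, 53 members fell after 6.7 Gy and 54 after 7.4 Gy, beside 6.48% and 6.53% of all probes. With slide as a random block 57 and 62 fell, beside 6.81% and 9.17%. Other settings lowered the counts. They were 8 and 11 with quantile normalization, beside 3.58% and 3.68% of all probes, and 3 and 0 with position as a term, beside 0.738% and 0.0603%. They were 0 and 0 with no filter on dim probes, beside 0.241% and 0.225%, and 0 and 0 with replicate number as a block, beside 0.33% and 0.458%. The 6.7 Gy count of 16 went to 2, 1, 4 and 5 without control 1, 2, 3 or 4, and to 1, 1 and 4 without 6.7 Gy day 4 replicate 2, 3 or 4, while 0.965% to 2.28% of all probes passed in these fits. The 7.4 Gy count of 28 went to 1, 1, 3 and 7 without control 1, 2, 3 or 4, and to 2, 3 and 5 without 7.4 Gy day 4 replicate 1, 2 or 3, while 1.24% to 3.36% of all probes passed. When single arrays were left out, the count of 63 over both doses was smallest without control 1, at 42, beside 6.33% of all probes.

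**Figure D2:**
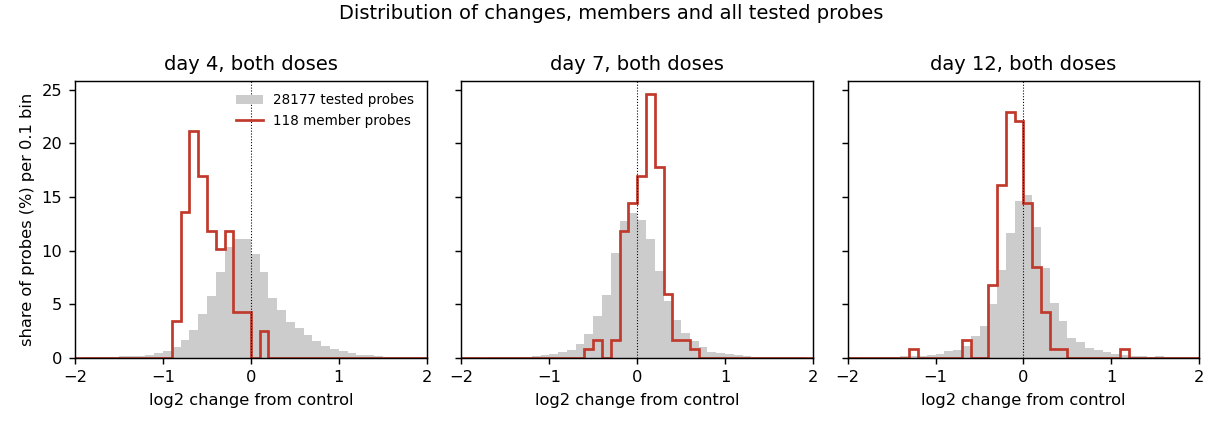
Share of probes (%) per bin of 0.1 in the log2 difference from control, for the 118 members (red line) and all 28177 tested probes (grey), on each day with both doses averaged. On day 4 the members lie left of the bulk of the array, with a median of -0.53, and on days 7 and 12 their medians are 0.11 and -0.10.

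Complex I, the entry point for electrons from NADH, had 41 tested probes, of which 22 fell on day 4, with a median of -0.50. Its accessory subunits, which surround and stabilise the core, gave 20 of these 22, out of 34 probes. NDUFA1, an accessory subunit needed for assembly of the membrane arm, was measured by probe A_01_P1698201 at 5.31, 5.55, 5.30 and 5.36 in controls. On day 4 it was at 4.83, 4.62, 4.72 and 4.45 after 6.7 Gy and at 4.84, 4.76, 4.82 and 4.76 after 7.4 Gy. Every day 4 array was below every control, and the difference was -0.65 (SE 0.11, adjusted p = 0.00102). On day 7 it was at 5.20 to 5.51 after 6.7 Gy and at 4.94 to 5.45 after 7.4 Gy, which overlaps the controls.

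NDUFAB1, the mitochondrial acyl carrier protein and a subunit of complex I, gave like values in probe A_01_P1821321. Controls were at 4.42, 4.21, 4.46 and 4.19, 6.7 Gy day 4 arrays at 3.85, 3.31, 3.53 and 3.84, and 7.4 Gy day 4 arrays at 3.46, 3.51, 3.57 and 3.79. The groups did not overlap, and the difference was -0.71 (SE 0.13, adjusted p = 0.00188). All 4 probes of the gene passed, between -0.71 and -0.52.

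The core subunits carry the redox centres. Of 7 core probes 2 fell, one of NDUFS3 (-0.73, adjusted p = 0.00734) and one of NDUFS8 (-0.53, adjusted p = 0.0172), which holds iron-sulfur clusters. The median of the core probes was -0.34. NDUFV2, which passes electrons from the flavin, had probes at -0.21 and 0.13, and neither passed. The assembly factors, which help build complex I and are not part of it, had 6 probes with a median of -0.20, and 0 fell.

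Complex II oxidises succinate and links the chain to the tricarboxylic acid cycle. Of its 7 probes 4 fell on day 4, with a median of -0.66, and all were for the membrane anchors SDHC and SDHD. The first SDHD probe, A_01_P020172, was at 4.14, 4.03, 4.09 and 3.87 in controls, at 3.43, 3.32, 3.28 and 3.20 after 6.7 Gy and at 3.04, 3.28, 3.27 and 3.45 after 7.4 Gy on day 4. The groups were apart by more than the spread of either, with a difference of -0.75 (SE 0.11), and its adjusted p of 0.000431 was the smallest of any member in this comparison. The second SDHD probe, A_01_P1734996, fell by 0.84 (adjusted p = 0.000905); its accession is now assigned to LOC711326.

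SDHC had 3 probes. Probe A_01_P1768671 fell to between -0.44 and -0.01 on the 8 day 4 arrays from 0.37, 0.23, 0.38 and 0.37 in controls, a difference of -0.59 (SE 0.10, adjusted p = 0.00162). Probe A_01_P1738036 fell by 0.66 (adjusted p = 0.0155), but not past the threshold without control 2 (adjusted p = 0.0777), with scan day as a block (-0.48, adjusted p = 0.0697) or on the arrays of scan day 1 alone (-0.48, adjusted p = 0.125). Probe A_01_P1740004 was at -0.38 (adjusted p = 0.0567), and it passed with scan day as a block (-0.49, adjusted p = 0.0225) and with slide as a fixed block (-0.50, adjusted p = 0.0206).

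SDHB, the iron-sulfur subunit, had 2 probes that did not pass. Probe A_01_P018740 was at -0.54 (adjusted p = 0.0629), and it passed with scan day as a block (-0.67, adjusted p = 0.0364), with slide as a fixed block (-0.70, adjusted p = 0.0203) and without 7.4 Gy day 4 replicate 4 (adjusted p = 0.0152). Probe A_01_P1735991 spread widely within groups, with controls at 1.94, 3.06, 3.55 and 3.47 and 6.7 Gy day 4 arrays at 0.69, 2.81, 1.84 and 3.16. Its groups overlapped, and the difference over both doses was -0.71 (SE 0.47, adjusted p = 0.351), or -1.06 without control 1 and -0.47 without 6.7 Gy day 4 replicate 1.

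Complex III had 14 tested probes, of which 10 fell on day 4, with a median of -0.59. Of the core proteins and the Rieske iron-sulfur protein UQCRFS1, 4 of 5 probes fell. UQCRH, the hinge protein that holds cytochrome c1, was at 5.45, 5.12, 5.31 and 5.06 in controls in probe A_01_P1765806. It was at 4.96, 4.42, 4.48 and 4.57 after 6.7 Gy and at 4.26, 4.67, 4.52 and 4.88 after 7.4 Gy on day 4. All day 4 arrays were below all controls, and the difference was -0.64 (SE 0.13, adjusted p = 0.00344).

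UQCRC2, a core protein of complex III, was at 3.97, 3.66, 3.49 and 3.65 in controls in probe A_01_P000921. On day 4 it ranged from 2.51 to 3.43 after 6.7 Gy and from 2.85 to 3.11 after 7.4 Gy, below every control, with a difference of -0.69 (SE 0.15, adjusted p = 0.00744). Its second probe was at -0.41 (adjusted p = 0.157). Both probes of UQCRC1 fell, by 0.59 and 0.49, and UQCRFS1 fell by 0.55 (adjusted p = 0.0154).

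Complex IV had 21 tested probes, of which 10 fell, with a median of -0.53. All 10 were for subunits expressed in most tissues, which had 17 probes. COX7B, a small membrane subunit, was at 2.54, 2.30, 2.25 and 2.37 in controls in probe A_01_P005448. After irradiation it was at 1.67, 1.67, 1.60 and 1.62 on day 4 of 6.7 Gy and at 1.49, 1.43, 1.65 and 1.05 on day 4 of 7.4 Gy. The highest day 4 array was below the lowest control by more than the spread of the controls, and the difference was -0.84 (SE 0.13, adjusted p = 0.000514). After 7.4 Gy alone it was -0.96 (adjusted p = 0.0177), the lowest member among those measured on every array; without control 1 or control 2 the adjusted p was 0.0502 and 0.0530, and it was 0.0714 with no filter on dim probes and 0.0766 with the replicate block. A second COX7B probe was at -0.36 (adjusted p = 0.257).

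COX5A, a matrix-side subunit, fell in all 3 of its probes, by 0.83, 0.77 and 0.75. In probe A_01_P1775151 the controls were at 5.27, 5.18, 5.16 and 5.14, the 6.7 Gy day 4 arrays at 4.53, 4.23, 4.33 and 4.47, and the 7.4 Gy day 4 arrays at 4.21, 4.35, 4.45 and 4.79. The groups did not overlap (SE 0.12, adjusted p = 0.00059). COX4I1, a subunit that takes part in regulation by ATP, fell in 2 of 3 probes, by 0.75 and 0.71. Both probes of COX6B1 fell, by 0.73 and 0.53, and COX8A fell by 0.59 (adjusted p = 0.0106).

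The probes for COX7C, another small subunit, disagreed. Probe A_01_P1739686 was at 4.66, 4.62, 4.74 and 4.80 in controls and between 3.54 and 4.42 on day 4, with no overlap and a difference of -0.70 (adjusted p = 0.00473). Probe A_01_P005689 was at 1.82, 2.17, 3.05 and 2.45 in controls, at 3.84, 1.94, 2.31 and 2.37 after 6.7 Gy and at 2.21, 2.36, 2.93 and 2.55 after 7.4 Gy on day 4. On that probe 6.7 Gy day 4 replicate 1, at 3.84, was above all controls, and the other day 4 arrays lay within the controls. The difference of 0.19 (adjusted p = 0.737) was the highest of all members and turned to -0.012 without that array.

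Some complex IV subunits have forms used mainly in muscle or testis. None of their 4 tested probes passed on day 4, when their median was -0.32. COX6A2, the heart and skeletal muscle form, was at -0.16 (adjusted p = 0.433). COX6B2, the testis form, was at -0.20 (adjusted p = 0.397), or -0.060 without control 2, and at -0.45 (adjusted p = 0.149). The muscle form COX7AH, now COX7A1, was at -0.53 (adjusted p = 0.0851). Summed smooth muscle markers in the same arrays were at 329 to 460 in controls, 398 to 560 after 6.7 Gy and 412 to 684 after 7.4 Gy on day 4, on a linear scale where 1 is the 75th percentile. Their part in these values was not tested.

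ATP synthase had 23 tested probes, of which 16 fell, with a median of -0.57. Its c ring, which turns as protons pass, is encoded by ATP5G1, ATP5G2 and ATP5G3, and all 8 of their probes fell, with a median of -0.64. ATP5G1 had the lowest value of any member, -0.85 (adjusted p = 0.00206) in probe A_01_P1825081. In probe A_01_P1687995 it was at 6.29, 6.04, 6.18 and 6.12 in controls, at 5.78, 5.33, 5.24 and 5.60 after 6.7 Gy and at 5.23, 5.32, 5.32 and 5.78 after 7.4 Gy on day 4. These groups did not overlap, with a difference of -0.71 (SE 0.13, adjusted p = 0.00165).

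Of the catalytic head and central stalk, 2 of 5 probes fell. ATP5B, the catalytic beta subunit, was at 6.93, 7.00, 7.27 and 7.08 in controls in probe A_01_P010399, at 6.79, 6.35, 6.41 and 6.77 after 6.7 Gy and at 6.54, 6.59, 6.63 and 6.78 after 7.4 Gy on day 4. It fell by 0.46 (SE 0.11, adjusted p = 0.0107), with no overlap. ATP5A1, the alpha subunit, was at -0.61 (adjusted p = 0.0587) and ATP5D at -0.26 (adjusted p = 0.249). The peripheral stalk, which holds the head still, fell in 4 of 7 probes, among them ATP5O (-0.62, adjusted p = 0.00178) and ATP5F1 (-0.37, adjusted p = 0.0443). Among other settings, ATP5F1 did not pass under quantile normalization (-0.21, adjusted p = 0.232) or without any 1 of the 4 controls (adjusted p from 0.0742 to 0.118).

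**Figure D3:**
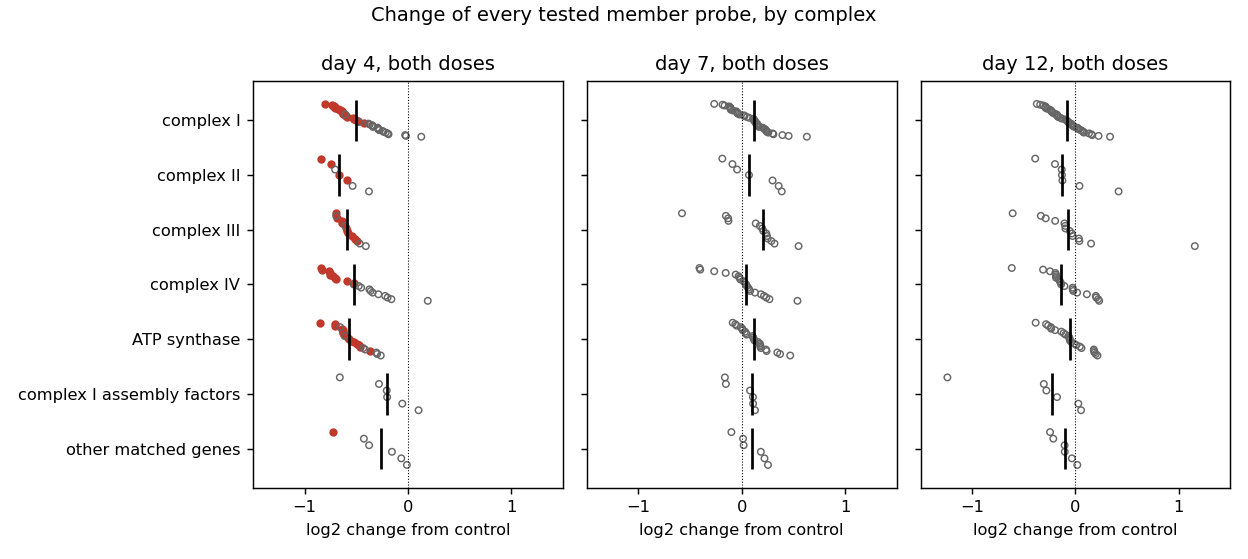
Log2 difference from control of every tested member probe, by complex, on days 4, 7 and 12 with both doses averaged. Filled red points had an adjusted p under 0.05, open points did not, and black bars are medians. The vertical spread of points within a row only orders them by value. On day 4 the medians of the 5 complexes lie between -0.66 and -0.50 and that of the assembly factors at -0.20.

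Counted by symbol, 39 of 64 had a probe that fell on day 4, and for 25 every tested probe did. Of the 40 symbols with several probes, 13 fell in all of them, 14 in some and 13 in none. The probes of 1 symbol differed by a median of 0.16 on the log2 scale and by at most 0.89, for COX7C. Only COX7C and NDUFV2 had probes on both sides of 0. Probes of these families may also bind RNA of near-identical copies, which was not tested.

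On day 7 most oxidative phosphorylation genes were higher than on day 4, and none differed from control past the adjusted p, with 82 of 118 members above the control mean and 36 below it. With both doses averaged, 0 of 118 passed either rule in limma, beside 0.877% of all probes at the study's limits and 2.7% at the adjusted p alone. At an unadjusted p under 0.05, 12 were higher and 1 lower, beside 17.1% of all probes in either direction. The median difference was 0.11, beside -0.02 over all probes. After 6.7 Gy it was 0.14, with 0 members past the adjusted p or at the limits (0.0639% of all probes at each) and 8 higher and 1 lower at an unadjusted p (10.5%). After 7.4 Gy it was 0.07, with 0 past the adjusted p (0.305%) or at the limits (0.287%) and 7 higher and 2 lower at an unadjusted p (16.4%). The methods' t-test also passed 0 members at both doses, beside 0.0071% and 0.138% of all probes, with 16 and 13 at an unadjusted p, beside 10.8% and 15.8%.

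Array by array the member medians of day 7 lay at 0.22, 0.07, 0.19 and 0.04 on the 6.7 Gy arrays and at 0.11, 0.18, 0.18 and -0.16 on the 7.4 Gy arrays. The last of these, 7.4 Gy day 7 replicate 4, was below all controls and stood apart from its group. Without it the median after 7.4 Gy was 0.14 in place of 0.07, and without 7.4 Gy day 7 replicate 3 it was 0.024. Without replicate 4, 2 members passed over both doses. There was 1 without 6.7 Gy day 4 replicate 3, 7.4 Gy day 4 replicates 1 or 4, or 7.4 Gy day 7 replicate 3. With all arrays 0 members and 2.7% of all probes passed, and the share in the fits without an array is not given. For 5 members all 8 arrays were above all controls, beside 2.16% of all probes, and for 0 members were they all below, beside 1.58%.

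SDHC came closest, in probe A_01_P1768671, at 0.86, 0.78, 0.60 and 0.59 after 6.7 Gy and at 0.82, 0.82, 0.88 and 0.44 after 7.4 Gy. Every array was above the highest control, at 0.38, and the difference was 0.39 (adjusted p = 0.0502). ATP5B was at 0.34 (adjusted p = 0.0934), with day 7 arrays from 7.17 to 7.52 and controls from 6.93 to 7.27. The testis form COX6B2 was at -0.40 and -0.41 over both doses, without passing. The COX7C probe A_01_P005689 was the highest member after 7.4 Gy among those measured on every array, at 0.71 (SE 0.38, adjusted p = 0.393).

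The difference between days 7 and 4 was tested directly, between different animals whose arrays also lay at different positions on the slides. Of the 118 members 97 were higher on day 7 and 0 lower at the adjusted p, beside 9.22% of all probes that were higher and 7.69% that were lower. The median difference was 0.62, a level 54.2% higher, beside 0.06 over all probes. Within slides 1 to 6 it was 0.81, 0.47, 0.81, 0.57, 0.53 and 0.60. The day 4 arrays are the same as in the comparison with control, so the 97 and the 63 are not independent counts.

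By complex, this rise passed for 37 of 41 complex I probes, 6 of 7 of complex II, 12 of 14 of complex III, 14 of 21 of complex IV and 21 of 23 of ATP synthase, but for 3 of 6 of the assembly factors and 0 of 4 of the muscle and testis forms. SDHC in probe A_01_P1768671 had the smallest adjusted p, 5.87e-06, with a rise of 0.98 (SE 0.09). ATP5B rose by 0.81 (SE 0.09, adjusted p = 1.88e-05) and UQCRH in probe A_01_P1765806 by 0.92 (adjusted p = 1.99e-05).

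At the study's limits 1 member passed between days 7 and 4, beside 1.88% of all probes. It was NDUFA10, an accessory subunit of complex I, in probe A_01_P1678211. It was at 0.11, -0.39, -0.04 and 0.01 in controls. On day 4 it was at -0.36, -1.44, -0.83 and -0.58 after 6.7 Gy and at -0.95, -0.58, -0.95 and -1.32 after 7.4 Gy, and on day 7 at -0.25, 0.26, 0.18 and 0.35 and at 0.37, 0.48, -0.13 and 0.18. Days 4 and 7 did not overlap, and the rise was 1.06 (SE 0.15, adjusted p = 0.000151), which is 2.08-fold. Against control on day 4 the 2 NDUFA10 probes were at -0.80 and -0.34, and 1 of them passed the adjusted p. The count of 1 member lay next to the 2-fold limit. Without 6.7 Gy day 4 replicate 2 it was 0, without 6.7 Gy day 4 replicate 1 it was 5 and without 7.4 Gy day 7 replicate 4 it was 4. It was 2 without 6.7 Gy day 4 replicate 4, 7.4 Gy day 4 replicates 2 or 4, 6.7 Gy day 7 replicates 1 or 2, or 7.4 Gy day 7 replicate 3.

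**Figure D4:**
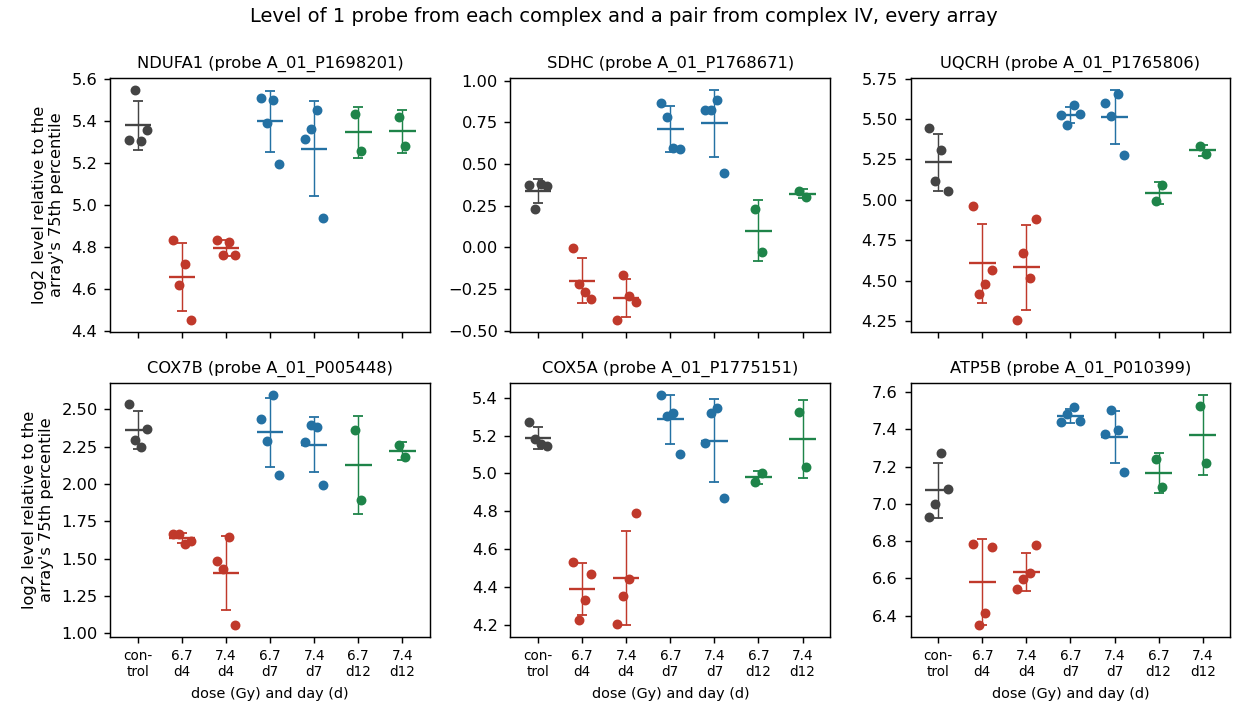
Log2 level of 6 member probes on every array, scaled to the array's 75th percentile, by group, with d for day. Points are arrays, bars the mean and SD (n = 4, on day 12 n = 2). In each panel the 8 day 4 arrays lie below the 4 controls, and the day 7 arrays lie above all day 4 arrays.

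On day 12, with 2 animals per dose, the median over members was close to control, while single members ranged from -1.24 to 1.16. With both doses averaged, 0 of 118 passed in limma, beside 0.071% of all probes at the adjusted p and 0.0532% at the study's limits, and 2 were higher and 5 lower at an unadjusted p under 0.05, beside 9.08%. The median was -0.10, beside 0.01 over all probes. The members' medians were -0.12 and -0.21 on the 6.7 Gy arrays and 0.05 and -0.05 on the 7.4 Gy arrays. Both 6.7 Gy arrays were below all controls and both 7.4 Gy arrays were within them. The doses also lay on different slides and scan days, and these cannot be told apart from dose on day 12.

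The lowest member of day 12 was NDUFAF5, an assembly factor of complex I, in probe A_01_P004192. It was at -1.76, -0.72, -1.03 and -0.35 in controls, at -1.78 and -2.37 after 6.7 Gy and at -2.46 and -2.21 after 7.4 Gy. All 4 day 12 arrays were below all controls. The differences of -1.11 (adjusted p = 0.665) and -1.37 (adjusted p = 0.497) did not pass, and 1 of the 7.4 Gy arrays was not well above background. The second NDUFAF5 probe was at -0.42 and -0.19, and neither passed. COX6B2 in probe A_01_P1706571 was at -0.84 after 7.4 Gy (adjusted p = 0.498) and SDHB in probe A_01_P1735991 at 0.43 after 6.7 Gy (adjusted p = 0.871), or 0.080 without control 1.

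After 6.7 Gy the median difference on day 12 was -0.20, with 0 members past the adjusted p or at the limits (0.0071% of all probes at each) and 1 higher and 10 lower at an unadjusted p (7%). For 36 members both 6.7 Gy arrays were below all controls, beside 7.43% of all probes, and for 4 above, beside 10.1%. After 7.4 Gy the median was 0.03, with 0 past the adjusted p or at the limits (0.00355% at each) and 1 higher and 3 lower at an unadjusted p (8.41%). Both 7.4 Gy arrays were below all controls for 12 members, beside 9.5% of all probes, and above them for 5, beside 8.5%. The sign of this median turned to -0.052 without 7.4 Gy day 12 replicate 1 and to -0.12 with slide as a term. The methods' t-test passed 0 members and 0% of all probes at both doses, with 18 and 6 at an unadjusted p, beside 6.7% and 7.33%.

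Against day 4, 55 members were higher on day 12 and 0 lower, beside 6.7% of all probes in each direction, with a median of 0.40 beside 0.09. The count was lower without 6.7 Gy day 12 replicate 1, without 7.4 Gy day 12 replicate 1 and without the 4 arrays of slide 5. Each of these fits leaves 1 array in a day 12 group, and the share of all probes in them is not given. Within slides 3 to 6 the median was 0.51, 0.31, 0.49 and 0.39. By complex, 13 of 41 probes of complex I, 4 of 7 of complex II, 9 of 14 of complex III, 10 of 21 of complex IV and 18 of 23 of ATP synthase were higher, and 0 of 6 of the assembly factors, whose median was -0.09. All 8 c ring probes of ATP synthase were among them.

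The 1 member at the study's limits between days 12 and 4 (3.42% of all probes) was a dim probe of UQCRB, a small subunit that binds ubiquinone in complex III. Probe A_01_P007004 was well above background on 20 of 24 arrays. It was at -1.87, -2.65, -2.82 and -3.37 in controls and between -4.11 and -2.42 on day 4. On day 12 it was at -1.12 and -1.78 after 6.7 Gy and at -1.84 and -1.34 after 7.4 Gy. Days 4 and 12 did not overlap, with a measured rise of 1.85 (SE 0.29, adjusted p = 0.000841). The probe was well above background on 3 of 4 arrays at each dose on day 4 and on all 4 arrays of day 12, so the low side of this difference includes 2 arrays where it was not. Of the controls 1 of 4, and of the day 7 arrays 1 of 8, also lacked a signal well above background. Against control it was 1.16 (adjusted p = 0.265), and the brighter UQCRB probe rose by 0.62 between days 12 and 4.

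Between days 12 and 7, 4 members passed the adjusted p, beside 0.213% of all probes. The dim UQCRB probe was higher by 1.73 (adjusted p = 0.0176) and was the 1 member at the study's limits, beside 0.0958% of all probes. SDHC in probe A_01_P1768671 was lower by 0.51 (adjusted p = 0.0452). Both UQCRC2 probes were lower, by 0.85 (adjusted p = 0.0216) and 0.89 (adjusted p = 0.0487). In probe A_01_P000921 UQCRC2 was at 2.62 and 3.00 after 6.7 Gy and at 3.49 and 3.24 after 7.4 Gy on day 12, below the day 7 range of 3.66 to 4.16.

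These 4 calls depended on the arrays used. The count was 0 without slide 5, without 6.7 Gy day 12 replicate 1 or without 7.4 Gy day 12 replicate 1. It was 2 without control 2, 3 or 4, 6.7 Gy day 4 replicates 3 or 4, 7.4 Gy day 4 replicates 2 or 3, 6.7 Gy day 7 replicates 2, 3 or 4, or 7.4 Gy day 7 replicates 1 or 3. At an unadjusted p under 0.05, 1 member was higher and 28 lower, beside 6.67% of all probes that were lower, and the median was -0.17, beside 0.01 over all probes.

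The doses were compared directly on each day, and 0 members and 0% of all probes passed in limma. At an unadjusted p under 0.05 there were 0 members on day 4 (2.38% of all probes), 2 lower after 7.4 Gy on day 7 (6.08%) and 10 higher after 7.4 Gy on day 12 (4.92%). The methods' t-test passed 0 members and 0% of all probes on each day, with 1, 0 and 10 at an unadjusted p, beside 2.72%, 4.49% and 4.02%. The median difference of 7.4 Gy from 6.7 Gy was -0.03, -0.03 and 0.16. On day 4 it ranged over complex I probes from -0.27 to 0.30 and over complex IV probes from -0.23 to 0.28. On day 12 the 6.7 Gy arrays lay on slides 3 and 4 and the 7.4 Gy arrays on slides 5 and 6, scanned on another day. Dose, slide and scan day therefore cannot be told apart on day 12. The dose by day test passed 0 members and 0% of all probes. At an unadjusted p under 0.05 there were 2 of 118 members, beside 893 of 28177 probes.

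A test for any difference among the 7 groups passed for 70 of 118 members, beside 9.95% of all probes. These were 24 of complex I, 5 of complex II, 12 of complex III, 10 of complex IV, 18 of ATP synthase and 1 assembly factor probe. Most members were bright: 84 of the 118 were among the brightest 10% of tested probes. Those 2818 probes had a median difference of -0.12 on day 4, and 11.5% of them fell.

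Genes of related pathways were counted with 1 probe a gene on day 4 at both doses. On that scale 37 of 64 oxidative phosphorylation symbols fell and 0 rose, with a median of -0.53. Tricarboxylic acid cycle genes, which supply NADH and succinate, had 7 of 15 lower and 0 higher, with a median of -0.60. SUCLG2 and SUCLG1, both of succinyl-CoA ligase, fell by 1.09 (adjusted p = 0.00293) and 0.84 (adjusted p = 0.00284). Of mitochondrial fatty acid oxidation genes 4 of 13 fell, with a median of -0.50. They included ECI1, which handles unsaturated fatty acids (-1.12, adjusted p = 0.0022), and ETFDH, which feeds their electrons to ubiquinone (-0.73, adjusted p = 0.00508).

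The subunits encoded in mitochondrial DNA had 12 symbols tested, among them ND1 under 2 names, with a median of -0.47, and 1 fell, ND4L (-0.79, adjusted p = 0.011). ND3 was at -0.88 (adjusted p = 0.0738). Above 0 were ND6 at 0.61 (adjusted p = 0.184) and the probe listed as MT-ND1 at 1.68 (SE 0.71, adjusted p = 0.134), while the probe listed as ND1 was at -0.45 (adjusted p = 0.0823). Assembly factors and subunits outside the name rule had 3 of 23 lower, with a median of -0.19. Among them CYC1, cytochrome c1, fell by 0.71 (adjusted p = 0.0203) and USMG5, a small subunit of ATP synthase, by 0.47 (adjusted p = 0.0199). ATP export and phosphate import genes had 1 of 7 lower, the ADP/ATP carrier SLC25A5 (-0.47, adjusted p = 0.0354), with CKMT2 at -0.70 (adjusted p = 0.0573) and a median of -0.33.

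Genes with symbols of mitochondrial ribosomal proteins, which make the subunits encoded in mitochondrial DNA, had 1 of 63 higher (MRPS23, 0.65) and 1 lower (MRPS36, -0.87), with a median of -0.08. MRPS36 is counted here by its symbol, and its part in that ribosome was not checked. Regulators of mitochondrial biogenesis had 1 of 10 lower, the nuclear receptor ESRRG (-0.94, adjusted p = 0.0133), with PPRC1 at 0.36 (adjusted p = 0.146) and a median of 0.05. Of 6 uncoupling and alternative electron entry genes 0 passed, with a median of 0.06. Glycolysis, which makes ATP in the cytosol, had 3 of 18 higher and 4 lower, with a median of -0.21. LDHA, which turns pyruvate into lactate, fell by 0.68 (adjusted p = 0.0108) and GPI by 0.53 (adjusted p = 0.00849). The differences between lists were not tested.

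**Figure D5:**
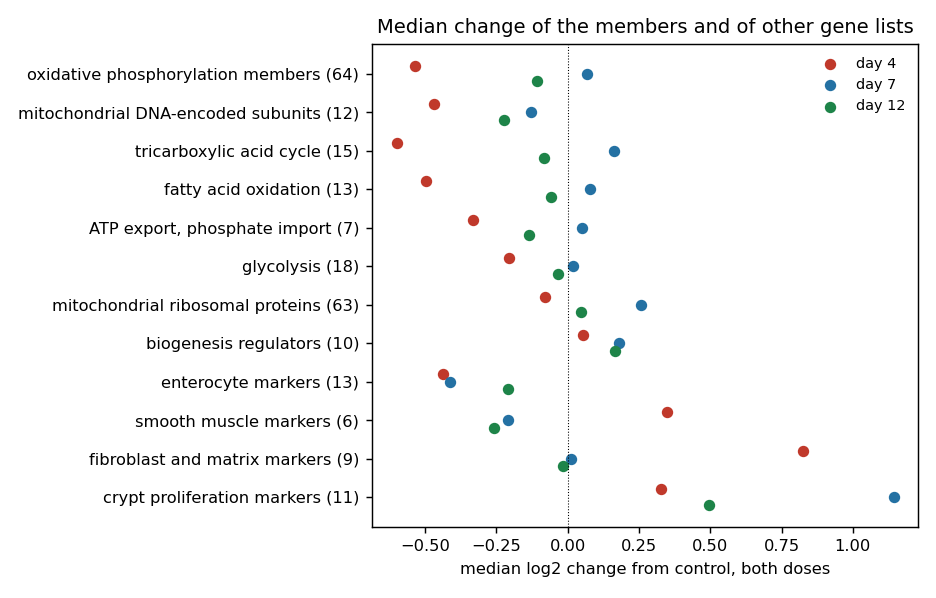
Median log2 difference from control over the tested genes of 12 lists, 1 probe a symbol, on days 4, 7 and 12 with both doses averaged. On day 4 the oxidative phosphorylation members (-0.53), the tricarboxylic acid cycle (-0.60) and fatty acid oxidation (-0.50) lie lowest of the 12 lists plotted, and mitochondrial ribosomal proteins lie at -0.08. Numbers in brackets are symbols tested.

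Markers of cell types moved on the same arrays. Summed enterocyte markers were at 941 to 1133 in controls, at 553 to 713 after 6.7 Gy and at 492 to 774 after 7.4 Gy on day 4, with no overlap. RBP2 and FABP1, which carry retinol and fatty acids in enterocytes, fell by 1.47 (adjusted p = 0.000852) and 1.40 (adjusted p = 0.00206). The 13 genes did not move alike, with 10 below 0 and 3 above it: LCT, the lactase, at 0.69 (adjusted p = 0.296), APOB at 0.08 and MEP1B at 0.04. On day 7 the enterocyte sum was at 595 to 1035 and 415 to 844, with a median gene difference of -0.41 and 1 of 13 lower, while the member median was 0.11. On day 12 the sums were 788 to 931 and 689 to 777, below the controls.

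Summed fibroblast and matrix markers were at 50.1 to 85.2 in controls, 102 to 119 after 6.7 Gy and 122 to 217 after 7.4 Gy on day 4, with 2 of 9 higher, FN1 (1.20) and DCN (1.08). Summed proliferation markers were at 15.0 to 19.8 in controls, 22.3 to 35.8 and 18.3 to 35.4 on day 4, with 2 of 11 higher, TYMS (1.86) and PCNA (0.64). On day 7 they were at 21.1 to 38.4 and 24.4 to 50.5, with 6 of 11 higher and a median of 1.14.

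Macrophage and granulocyte markers were at 5.34 to 6.07 in controls, 5.29 to 9.06 and 6.91 to 8.88 on day 4, with 2 of 6 higher, CD14 (1.09) and FCGR3 (1.77). CSF1R and CSF3R were at -0.11 and -0.14, and CSF1R fell on day 7 (-1.05, adjusted p = 0.00443). B and plasma cell markers were at 10.7 to 35.7 in controls, 11.0 to 12.7 and 8.68 to 13.4 on day 4, with 2 of 5 lower, MZB1 (-1.78) and CD79B (-0.67). Goblet and Paneth markers had 2 of 4 lower, AGR2 (-1.30) and CLCA1 (-0.69), while MUC2 was at 0.53 (adjusted p = 0.21) and LYZ at 0.58 (adjusted p = 0.364). T and NK cell markers had 1 of 9 higher, CD3G (0.72), smooth muscle markers 0 of 6 in either direction, and erythroid markers 1 of 3 lower. The erythroid gene was HBB, above background on 15 of 24 arrays, and CA1 was above it on none. The part of cell composition in the values of the members was not tested.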

How the data were processed

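The sources give each of 24 jejunum samples its own array, an Agilent 1-colour 4x44K Rhesus Macaque array hybridized with Cy3-labelled RNA. The deposited scanner files hold background-subtracted intensity values, which the authors extracted with Agilent Feature Extraction 11.0.1.1. A second deposited file holds log2 values that the authors normalized to the 75th percentile in GeneSpring, and the gene symbols were taken from it. On the shared 43603 probes 99.97% of its values were within 0.05 of those computed here after centring on each probe. The genome build used for probe annotation plays no part here, and 120 of the 126 member probes have a current symbol in the RefSeq gene table.

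Spots of a probe were averaged, control spots left out, and log2 intensity minus the 75th percentile of each array was fitted with limma 3.58.1 in R 4.3.3 (lmFit, eBayes). Tested were 28177 probes that all arrays of 1 group or more had well above background, with Benjamini-Hochberg adjustment over all of them. Each dose and day was compared with control using those arrays alone; averages over doses, days and doses against each other, and F tests used 1 model of the 7 group means. Tests are two-sided. Two-group p-values measure the spread between animals. The number of arrays limits the precision, most of all on day 12. The code was tested on simulated data.

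Groups came from the sample titles, which name day 12 where the treatment text names day 21. Members and gene lists were chosen with earlier results of these data known. Named were members at the study's limits against control, the 3 smallest F test p in each complex, all SDH probes, the muscle and testis forms, and the highest and lowest member of each comparison with control among those well above background on every array compared, 26 probes of 17 symbols in all; 1 further member that this rule chose is not reported here. For other lists, the 2 genes with the smallest p on day 4 were named. Further genes were named after their values were seen: NDUFA10, UQCRB, UQCRC1, UQCRFS1, NDUFS3, NDUFS8, NDUFV2, COX4I1, COX6B1, COX8A, COX7AH, ATP5A1, ATP5D, ATP5O, ND1, ND3, MT-ND1, ND6, LCT, APOB, MEP1B, MUC2, LYZ, CSF1R, CSF3R, COX7C in probe A_01_P1739686 and the second probes of COX7B, UQCRC2 and NDUFAF5. Alternatives covered background correction, normalization, probe filter, probes per symbol, slide, position and scan day as terms, the replicate block, single arrays, the fold limit and the methods' t-test.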

Additional observations from a re-analysis of the deposited data

Results flagged for a closer look

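Single arrays stood apart within groups of 4 in 8 of 130 group and probe combinations of the named members, where the gap to the nearest array, divided by the range of the group, exceeded 0.829. Chance gives about 1 in 20. In controls this was SDHC probe A_01_P1768671 (0.912, an array at 0.23 with the nearest at 0.37) and ATP5G1 probe A_01_P1825081 (0.947, 6.08 and 5.61). On day 4 after 7.4 Gy it was SDHD probe A_01_P1734996 (0.865, 0.54 and 0.77), COX5A probe A_01_P1686026 (0.946, 4.70 and 4.29), ATP5G1 probe A_01_P1687995 (0.836, 5.79 and 5.32) and SDHB probe A_01_P1735991 (0.852, 1.52 and 2.67). On day 7 it was UQCRH probe A_01_P1688251 after 6.7 Gy (0.965, 5.42 and 5.36) and SDHC probe A_01_P1768671 after 7.4 Gy (0.86, 0.44 and 0.82).

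Irradiated animals of different days differed by limma's test of the difference itself, for 97 members between days 7 and 4, 55 between days 12 and 4 and 4 between days 12 and 7. Day 4 arrays lay at other slide positions than those of days 7 and 12, so day and position cannot be told apart in the first 2 of these.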

How the results depend on the processing

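Medians over members kept their direction under every alternative that could be fitted except after 7.4 Gy on day 12 (0.03), where it was -0.12 with slide as a fixed block, -0.11 with scan day as a block, and -0.052 without slide 5, with a range of -0.052 to 0.056 when single arrays were left out. After 6.7 Gy on day 12 that range was -0.22 to -0.12. Of the counts at the study's limits or of the F test 543 stayed within 1.5 times and 59 moved, and of the counts past the adjusted p 296 stayed and 78 moved. Named members kept direction and side of the threshold in 1257 cases, lost the threshold in 45, passed it in 13 and changed sign in 10. The cause of the moves was not tested. Where no share of all probes is given for a setting, it cannot be told whether the members or the whole array moved.

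Members past the adjusted p on day 4 numbered 16 after 6.7 Gy and 28 after 7.4 Gy. They were 8 and 11 with quantile normalization, 0 and 0 with no filter on dim probes, 40 and 55 with probes well above background on all arrays, 42 and 48 with all arrays in 1 model, 53 and 54 with slide as a fixed and 57 and 62 as a random block, 42 and 50 with scan day and 3 and 0 with position as a block, 37 and 46 with trend and robust options, and 10 and 14 with scan day 1 only. Without slide 5 the 6.7 Gy count was 39. Without single arrays they ranged from 1 to 19 and from 1 to 27. At the study's limits (0 and 0) they were 1 and 1 with slide fixed and without slide 5, 1 for 6.7 Gy with position, 1 for 7.4 Gy with normexp or scan day, 2 for 7.4 Gy with scan day 1 only, 16 and 25 at 1.5-fold, 16 and 28 with no fold limit, and 0 to 1 for 7.4 Gy without single arrays.

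Over both doses on day 4, 63 past the adjusted p became 38 with 1 probe per symbol, 0 with position as a block and 42 to 67 without single arrays. At the limits 0 became 1 with scan day as a block, 44 at 1.5-fold and 63 with no fold limit. On day 7, 0 past the adjusted p became 1 with normexp, 3 with probes above background on all arrays, 2 with the 75th percentile of detected probes, quantile normalization, slide as a random block or trend and robust, and 0 to 2 without single arrays.

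Between days 7 and 4, 97 past the adjusted p became 53 with 1 probe per symbol. The 1 at the limits became 0 with the 75th percentile of detected probes or 1 probe per symbol, 4 with slide fixed, scan day or scan day 1 only, 3 without slide 5, 64 at 1.5-fold, 97 with no fold limit and 0 to 5 without single arrays. Between days 12 and 4, 55 became 29 with quantile normalization, 33 with 1 probe per symbol, 21 without slide 5 and 24 to 61 without single arrays. The 1 at the limits became 0 with probes above background on all arrays or 1 probe per symbol, 22 at 1.5-fold and 55 with no fold limit.

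Between days 12 and 7, 4 past the adjusted p became 0 with no filter, only the compared groups, position or without slide 5, 1 with 1 probe per symbol, 7 with slide as a random block and 0 to 5 without single arrays. The 1 at the limits became 0 with these (except 2 for slide as a random block), with quantile normalization or with probes above background on all arrays, 2 with trend and robust, 3 at 1.5-fold, 4 with no fold limit and 0 to 2 without single arrays. The F test count of 70 became 39 with 1 probe per symbol and 44 without slide 5.

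The replicate block took both single-dose counts on day 4 to 0, left 62 over both doses, and gave 33 between days 12 and 4 and 0 at both rules between days 12 and 7. Same-numbered arrays of different groups did not deviate together (median r 0.02 over 62 pairs, 15 above 0.1), so the numbers were not taken as pairing; arrays of 1 slide did more often (0.14 over 36 pairs, 25 above 0.1).

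COX7C probe A_01_P005689 turned on day 4 over both doses to -0.082 without slide 5 and -0.059 with scan day 1 only, and ranged from -0.012 to 0.42 without single arrays. After 6.7 Gy it turned to -0.17 and -0.032, with a range of -0.17 to 0.47. After 7.4 Gy it turned to -0.11 with slide fixed, -0.041 with scan day as a block and -0.086 with scan day 1 only, with a range of -0.042 to 0.37.

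Normexp used the median spot signal. Position as a block was estimable only for day 4 against control, days 12 against 7 and the doses. Promoter motifs were not run. Leaving out slide 5 and using scan day 1 only were chosen after seeing the data. On slide 5 the lowest signal of a probe well above background was 130 to 275, beside 7.03 to 83.0 on the other arrays.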

Other observations

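The array also holds subunit genes that the name rule left out because they are listed under LOC symbols. This list was drawn up after results were known, and many of its genes are copies or unassigned forms of the members, so it is not independent of them. Of 26 such genes tested with 1 probe each, 23 fell on day 4 with both doses averaged and 0 rose, with a median of -0.65. LOC721259 was at -0.81 (adjusted p = 0.000721) and LOC707114 at -0.65 (adjusted p = 0.00104). Their medians were 0.08 on day 7 and -0.15 on day 12.

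On day 7 the mitochondrial ribosomal proteins had 3 of 63 genes higher than control and 0 lower, beside 1.47% and 1.23% of all probes, with a median of 0.26, and on day 12 a median of 0.05. The tricarboxylic acid cycle and fatty acid oxidation genes had medians of 0.16 and 0.08 on day 7 and of -0.08 and -0.06 on day 12. The subunits encoded in mitochondrial DNA had medians of -0.13 and -0.22. Of the testis and muscle paralogs counted by gene, 0 of 2 passed on day 4, with a median of -0.18, and the medians were -0.28 on day 7 and -0.15 on day 12.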
